A study of Mus musculus with 6 samples.

Results

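The genes followed here are 9 genes that mark or shape the projection neurons of the upper cortical layers and the callosal neurons among them: *Cux1*, *Cux2*, *Rorb*, *Pou3f2*, *Pou3f3*, *Lhx2*, *Mdga1*, *Plxnd1* and *Unc5d*. They were chosen by name and found by gene symbol in a table of 59484 features, of which 23505 carry a symbol. A feature of that symbol was found for 8 of the 9 genes, and *Pou3f3* had none. PolyA+ RNA of the cortex at embryonic day 18.5 was sequenced in 3 libraries from wild-type embryos and 3 from embryos lacking both Sam68 and SLM2 (dKO). Sam68 (gene *Khdrbs1*) and SLM2 (gene *Khdrbs3*) are paralogous RNA-binding proteins that regulate splicing, and the question was how their joint loss changes the transcriptome of the developing cortex. Both genes were knocked out in the whole animal, so the loss was restricted to no cell type, and the mice were of the C57BL/6 background. The dKO embryos came from crosses between *Sam68* heterozygous, *Slm2* knockout parents, which produce no wild-type littermates, so genotype and litter cannot be told apart.

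Cortical projection neurons are born from radial glia and intermediate progenitors in an inside-out sequence, the deep layers first and the upper layers later. Upper-layer neurons mostly connect one part of the cortex with another, many of them across the corpus callosum, while deep-layer neurons also send axons to the thalamus, brainstem and spinal cord. Homeodomain, POU and LIM transcription factors set up this identity, and cell surface proteins such as MDGA1, plexins and UNC5 receptors act in the migration of the neurons and the growth of their axons.

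None of these genes passed the test for a difference between the 2 genotypes. Each value is a normalized count, the reads on a gene over the size factor of the library, and values are given in the order of replicates 1, 2 and 3. With limma on log2(normalized count + 1), 0 of the 8 genes measured had an adjusted *P*-value under 0.05, against 19 of the 18970 features tested, or 0.1%. The smallest adjusted *P*-value was 0.388, for *Cux1*. edgeR and DESeq2 on the reads behind the values also called 0 of the 8. At an unadjusted *P*-value under 0.05, 2 genes were higher in dKO cortex (*Cux1* and *Pou3f2*) and 0 were lower, where 4.92% of all features were higher and 6.58% were lower. At those shares a list of 8 genes would hold fewer than 1 gene in each direction, and no test was made over the list. Without wild-type replicate 3, 0 of the 8 genes had an unadjusted *P*-value under 0.05, and without wild-type replicate 1 also 0. Without wild-type replicate 2 there were 4 (*Cux1*, *Pou3f2*, *Plxnd1* and *Unc5d*), without dKO replicate 1 only *Cux1*, without dKO replicate 2 *Pou3f2* and *Unc5d*, and without dKO replicate 3 only *Lhx2*. The log2 fold changes ran from -0.29 to 0.35, 5 of them above 0 and 3 below, with a median of 0.07 beside a median of 0.0036 over all features tested. The median of the 8 genes was 0.0336 without dKO replicate 2, 0.11 without dKO replicate 1 and 0.15 without dKO replicate 3. All 8 genes stayed within 1.5-fold, as did 16906 of the 18970 features. The genotypes did not overlap for 1 of the 8 genes (*Cux1*, higher), where 7.89% of all features were higher and 8.48% lower without overlap. In whole tissue, fewer cells of a type and less RNA per cell cannot be told apart.

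**Figure D1:**
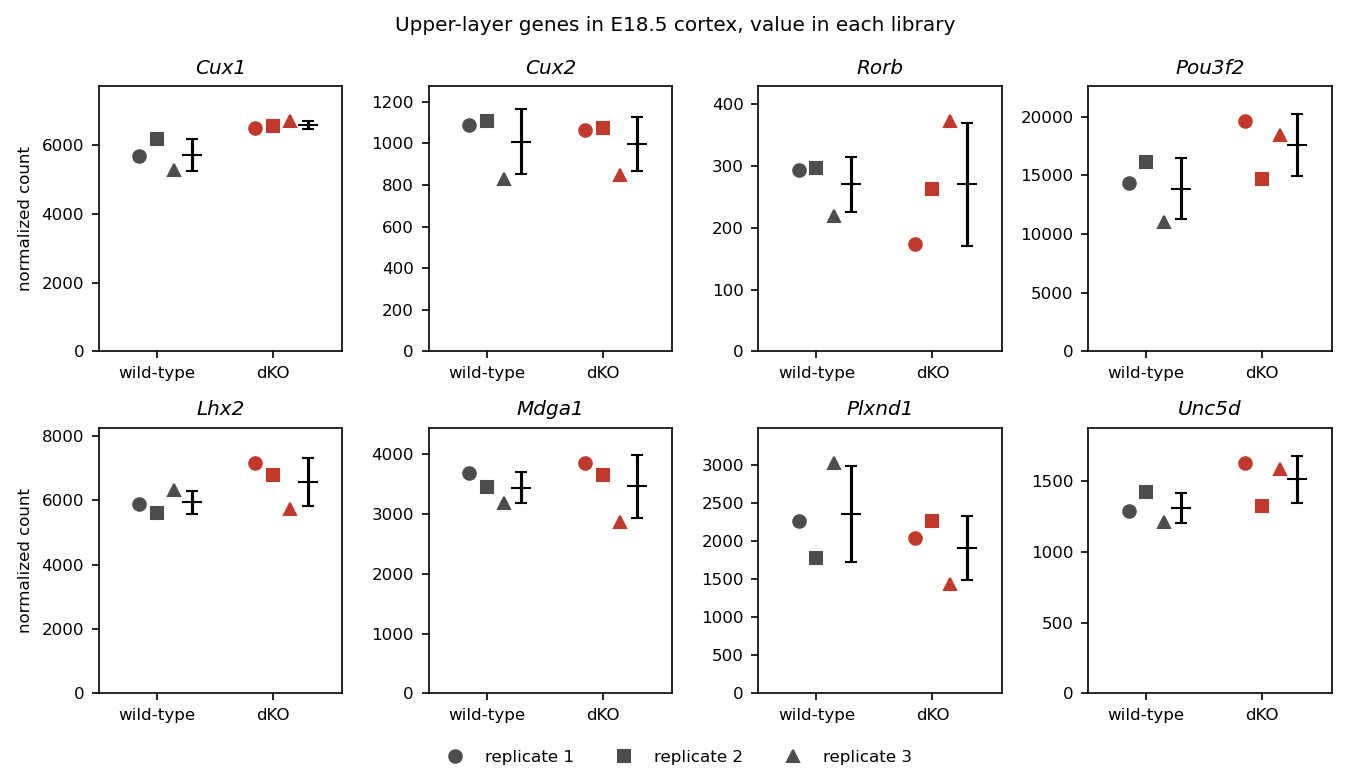
Normalized counts (vertical axes, starting at 0) of the 8 upper-layer genes in 3 wild-type and 3 dKO cortex libraries. Symbols are single libraries, and the bars give the mean and SD of each genotype. *Cux1* is the gene whose dKO values all lie above the wild-type values.

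The targeted genes followed the labels of the libraries. *Khdrbs1* had 8231, 8436 and 7974 normalized counts in wild-type libraries against 114, 197 and 146 in dKO libraries. *Khdrbs3* kept 48.1% of its wild-type level when reads were counted over the whole gene, with a log2 fold change of -1.05 (adjusted p = 0.000855, limma). Without the trend and robust options of limma its adjusted *P*-value was 0.0891. The genes that mark the cortex, *Emx1*, *Neurod6* and *Tbr1*, were all measured, and *Neurod6* was the most abundant of them, with 52388 ± 12010 normalized counts in wild-type cortex (SD, n = 3). *Emx1*, singled out after its values were seen, measured 1127, 1329 and 1125 normalized counts in wild-type libraries against 1706, 1734 and 1740 in dKO libraries. All dKO values of *Emx1* lay above all wild-type values. Its log2 fold change was 0.54 (unadjusted p = 0.000142, adjusted p = 0.0900, limma). Over the alternatives its adjusted *P*-value ran from 0.000505 to 0.449 (limma, edgeR and DESeq2), and it was under 0.05 with DESeq2 and without wild-type replicate 2 (0.0482, limma).

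*Cux1* and *Cux2* encode cut-repeat homeodomain factors that act in the dendrites and spines of upper-layer neurons. *Cux1* (GSMG0031218, chromosome 5 from 136248136 to 136567492, minus strand) measured 5683, 6169.7 and 5261 normalized counts in wild-type libraries against 6491, 6553 and 6705 in dKO libraries. All dKO values lay above all wild-type values, and they lay closer together, with an SD of 110.05 against 455. The mean of 6583 was 115% of the wild-type mean of 5704.5 (p = 0.1 by exact permutation, which is the lowest *P*-value 3 against 3 can reach). The log2 fold change of *Cux1* was 0.21 with a 95% confidence interval from 0.03 to 0.39 (standard error 0.08, unadjusted p = 0.0249, adjusted p = 0.388, limma). *Cux2* (GSMG0031045, chromosome 5 from 121860217 to 122049851, minus strand) measured 1087, 1109.6 and 828 normalized counts in wild-type libraries against 1065, 1076 and 848 in dKO libraries. In both genotypes replicates 1 and 2 lay close together and replicate 3 lay lower, and the genotypes overlapped. *Cux2* had a log2 fold change of -0.01 with a 95% confidence interval from -0.32 to 0.29 (limma), and its sign turned with single libraries left out.

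*Rorb* encodes a nuclear receptor that marks layer 4 and is needed for the barrel pattern of the somatosensory cortex. *Rorb* (GSMG0020166, chromosome 19 from 18930609 to 19111196, minus strand) measured 294, 298 and 219 normalized counts in wild-type libraries against 173, 264 and 373 in dKO libraries. The lowest and the highest of the 6 values were both dKO libraries, replicates 1 and 3, so the dKO values enclosed the wild-type ones. The means were 270.2 ± 44.2 and 270.1 ± 100.2 (SD, n = 3 each). The log2 fold change was -0.06 with the widest interval of the 8 genes, from -0.62 to 0.51 (limma). It was 0.30 without both libraries numbered 1 and 0.0042 after quantile normalization, so *Rorb* has no direction here.

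*Pou3f2* encodes the POU factor Brn2, which acts with Brn1 in the production and migration of upper-layer neurons, and *Lhx2* encodes a LIM homeodomain factor that specifies cortical identity in progenitors and is later used by upper-layer neurons. *Pou3f2* (GSMG0051024, chromosome 4 from 22482095 to 22488366, minus strand) measured 14347, 16176 and 11033 normalized counts in wild-type libraries against 19668, 14669.6 and 18447 in dKO libraries. The dKO replicates 1 and 3 lay above all wild-type libraries, and dKO replicate 2 lay between wild-type replicates 1 and 2. Its log2 fold change was 0.35 with a 95% confidence interval from 0.02 to 0.69 (standard error 0.15, unadjusted p = 0.0405, adjusted p = 0.413, limma), and the exact permutation test gave p = 0.2. The value was 0.20 without wild-type replicate 3, 0.48 without dKO replicate 2 and 0.30 without both libraries numbered 1. With the replicate number as a block, which the labels do not state to be a pairing, its unadjusted *P*-value was 0.115 (limma). *Lhx2* (GSMG0020994, chromosome 2 from 38339281 to 38369737, plus strand) measured 5879, 5610.1 and 6313 normalized counts in wild-type libraries against 7167, 6787 and 5718 in dKO libraries. Here dKO replicates 1 and 2 lay above all wild-type libraries and dKO replicate 3 lay among them. *Lhx2* had a log2 fold change of 0.14 with a 95% confidence interval from -0.07 to 0.35 (adjusted p = 0.589, limma). It was 0.07 without dKO replicate 1, 0.23 without dKO replicate 3 and 0.07 after quantile normalization.

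*Pou3f3* encodes Brn1, the close relative of Brn2. The annotated gene is a single exon on chromosome 1 from 42695768 to 42703176 (GENCODE M21, build GRCm38, plus strand), with its coding part from 42697146 to 42698636. In the table, 2 features covered this exon, and they are described here outside the symbol rule, after their values were seen. The first feature (GSMG0000193, from 42695778 to 42700207) carries no symbol, holds the whole coding part, and lies within the span that RefSeq gives *Pou3f3*, from 42695768 to 42700210. The second feature (GSMG0000194, from 42700336 to 42703176) carries the symbol *2900092D14Rik*, has the same start and end as a RefSeq long noncoding RNA of that name, and lies in the untranslated end of the GENCODE exon, so reads of the *2900092D14Rik* RNA and of a long *Pou3f3* transcript cannot be told apart there. GENCODE also places a sense-overlapping gene of the plus strand, *AC122898.1*, at both features, and its part in their reads was not tested.

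The unnamed feature measured 30237, 30500.3 and 25101 normalized counts in wild-type libraries against 35963, 27810.3 and 29925 in dKO libraries. Only dKO replicate 1 lay above all wild-type libraries, and the genotypes overlapped. Its log2 fold change was 0.12 with a 95% confidence interval from -0.12 to 0.37 (adjusted p = 0.677, limma). It was 0.0175 without dKO replicate 1, 0.0319 without wild-type replicate 3, 0.20 without dKO replicate 2 and 0.0212 after quantile normalization. *2900092D14Rik* measured 3546, 3376 and 2659 normalized counts in wild-type libraries against 4862, 4125 and 4145 in dKO libraries. All dKO values of *2900092D14Rik* lay above all wild-type values, without overlap. The log2 fold change of *2900092D14Rik* was 0.46 with a 95% confidence interval from 0.21 to 0.72 (standard error 0.12, unadjusted p = 0.0023, adjusted p = 0.263, limma), and DESeq2 on the recovered reads gave it an adjusted *P*-value of 0.0329. Over the alternatives its adjusted *P*-value ran from that value to 0.662 (limma, edgeR and DESeq2), and its log2 fold change from 0.34 to 0.54.

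Set against the unnamed feature of the same library, *2900092D14Rik* came to 11.7%, 11.1% and 10.6% in wild-type and to 13.5%, 14.8% and 13.9% in dKO libraries. The ratio was thus 11.1% ± 0.569 in wild-type cortex against 14.1% ± 0.683 in dKO cortex (SD, n = 3 each), without overlap. On the other side of the gene, the noncoding RNA gene *Pantr1* (chromosome 1 from 42590784 to 42694830) averaged 2657 ± 412 and 3331 ± 162 normalized counts in wild-type and dKO libraries (SD, n = 3 each), also without overlap. Its log2 fold change was 0.34 (adjusted p = 0.343, limma). *Pantr2*, beyond the far end of *Pou3f3* (from 42707061 to 42713454), was near the filter, with 15.3 ± 8.58 and 12.8 ± 1.88 normalized counts (SD, n = 3 each).

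**Figure D2:**
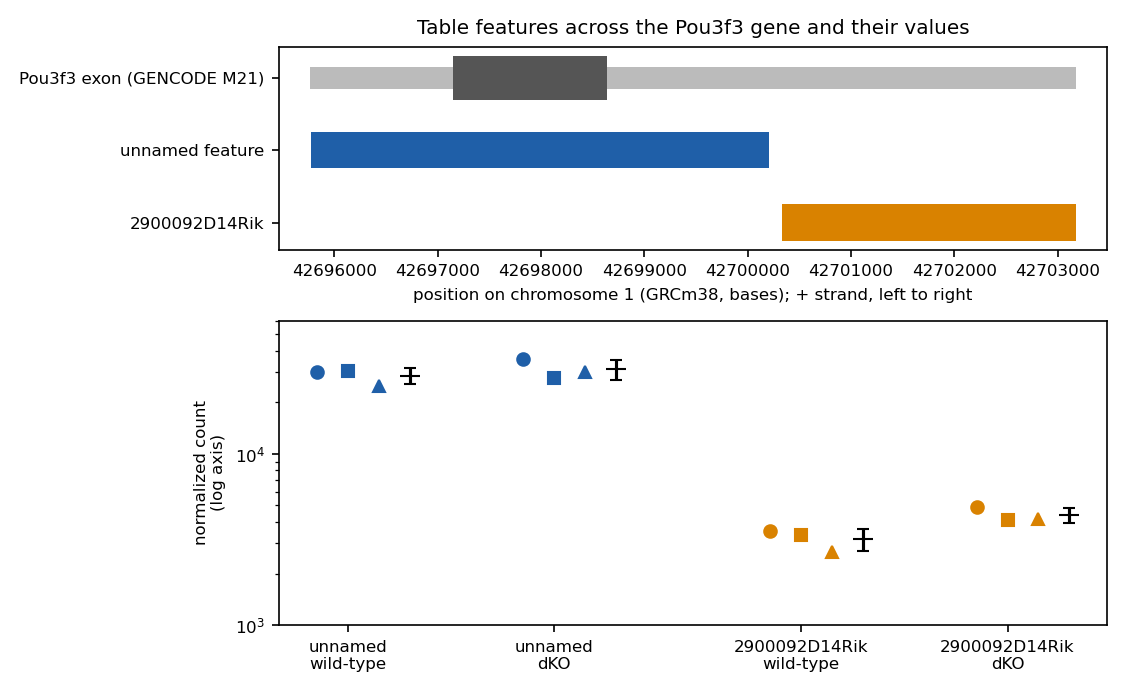
The upper panel maps the *Pou3f3* exon (light bar, coding part dark) and the 2 table features across it on chromosome 1 (GRCm38, position in bases). The lower panel gives their normalized counts per library on a log axis, symbols for replicates 1 to 3 and bars for the mean and SD of 3 libraries, and the 2 genotypes separate for *2900092D14Rik* and overlap for the unnamed feature.

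Reads of the related genes can be told apart over most of their length. Over 14 pairs of a listed gene and a paralog, the longest exact stretch shared by any of their transcripts was 47 bases (*Mdga1* and *Mdga2*). The longest shared coding stretch was 38 bases, and both lengths are well short of the paired reads of these libraries. Of these 14 pairs, 3 coding stretches are shown: the longest of all, and those of the 2 pairs in which both genes are listed members. They are given 5′ to 3′ on the coding strand (GENCODE M21 transcripts, GRCm38). *Pou3f2* and *Pou3f3* share 23 bases, at chr4:22487523-22487545 on the minus strand and chr1:42697822-42697844 on the plus strand. *Pou3f2* and *Pou3f1* share 38 bases, at chr4:22487155-22487192 on the minus strand and chr4:124658589-124658626 on the plus strand. *Cux1* and *Cux2* share 23 bases, at chr5:136312821-136312843 and chr5:121873835-121873857, both on the minus strand.
Pou3f2 and Pou3f3: gcttcacggtgaacggcatgctg
Pou3f2 and Pou3f1: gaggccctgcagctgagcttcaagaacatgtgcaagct
Cux1 and Cux2: tcaagcacaacattggccagcgc

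Other features lie inside the spans of the genes. *Sh2b3* overlaps the span of *Cux2* and had a mean of 268 normalized counts over the 6 libraries, and an unnamed feature inside *Pou3f2* (GSMG0026343) had 77.3. In the span of *Mdga1*, 2 unnamed features had means of 74.1 and 11.5 (GSMG0016466 and GSMG0017338), and an antisense gene is annotated at the first. The features inside *Cux1*, *Rorb* and *Unc5d* had means of at most 2.9, 0.387 and 3.17, and *Lhx2* and *Plxnd1* held none. How the counting treated strand is not given in the sources used here, so reads of a gene and an antisense partner cannot be told apart.

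*Mdga1*, *Plxnd1* and *Unc5d* encode cell surface proteins. MDGA1 is a membrane-anchored protein that acts in the migration of upper-layer neurons and holds back neuroligins. *Mdga1* (GSMG0017337, chromosome 17 from 29827958 to 29970087, minus strand) measured 3686, 3440.4 and 3172 normalized counts in wild-type libraries against 3854, 3655 and 2866 in dKO libraries. The highest and the lowest of these 6 values were both dKO libraries, replicates 1 and 3. *Mdga1* had a log2 fold change of 0.0017 with a 95% confidence interval from -0.25 to 0.25 (limma), and it was -0.06 after quantile normalization.

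Plexin D1 is a receptor for the semaphorin Sema3E, known in callosal neurons and in blood vessels. *Plxnd1* (GSMG0033560, chromosome 6 from 115954808 to 115995007, minus strand) measured 2261, 1771 and 3029 normalized counts in wild-type libraries against 2035, 2257 and 1442 in dKO libraries. Wild-type replicate 3 was the highest and dKO replicate 3 the lowest, and the other 4 libraries were mixed. The log2 fold change of *Plxnd1* was -0.29 with a 95% confidence interval from -0.79 to 0.20 (standard error 0.22, adjusted p = 0.625, limma). It was -0.09 without wild-type replicate 3, -0.10 without dKO replicate 3 and -0.48 without wild-type replicate 2.

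Endothelial markers are given beside *Plxnd1* because blood vessels express it. All 6 had log2 fold changes below 0, 2 of them with an unadjusted *P*-value under 0.05 (*Flt1*, log2 fold change -0.76, and *Kdr*, -0.66). At that threshold 6.58% of all features were lower. Of the 6 markers, 0 had an adjusted *P*-value under 0.05 (limma), and none was at 0. Summed, they measured 5677, 4812 and 6189.5 normalized counts in wild-type libraries against 4832, 5216 and 4542 in dKO libraries, and the genotypes overlapped. *Cldn5* made up 51.5% of this sum and had a log2 fold change of -0.03. Wild-type replicate 3 was the highest and dKO replicate 3 the lowest of the 6 in this sum too. The part of the endothelial cells in the value of *Plxnd1* was not tested.

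UNC5D is a receptor for netrins and FLRT proteins that acts in the migration of neurons born for the upper layers. *Unc5d* (GSMG0038241, chromosome 8 from 28646717 to 29219637, minus strand) measured 1289.7, 1422 and 1213 normalized counts in wild-type libraries against 1629, 1322 and 1584 in dKO libraries. As for *Pou3f2*, dKO replicates 1 and 3 lay above all wild-type libraries and dKO replicate 2 lay between wild-type replicates 1 and 2. *Unc5d* had a log2 fold change of 0.21 with a 95% confidence interval from -0.03 to 0.44 (standard error 0.11, adjusted p = 0.488, limma).

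**Figure D3:**
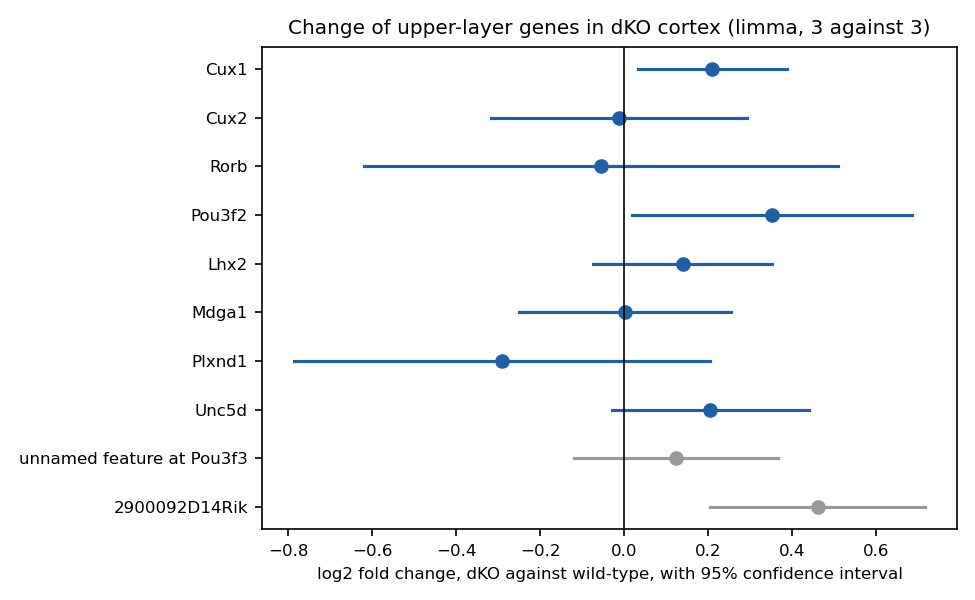
Log2 fold change of dKO against wild-type cortex (points) with 95% confidence intervals from limma (lines), for the 8 upper-layer genes in blue and the 2 features at *Pou3f3* in grey. The intervals of *Cux1*, *Pou3f2* and *2900092D14Rik* lie above 0 before adjustment and the other 7 include 0.

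Per kilobase of annotated exon, the genes spanned a wide range of levels in wild-type cortex. *Pou3f2* was the highest with 2479 ± 467 normalized counts per kilobase, followed by *Lhx2* with 1351 ± 80.8 (SD, n = 3 each). *Mdga1*, *Plxnd1* and *Cux1* came next with 361 ± 27.0, 322 ± 86.8 and 285 ± 22.7 per kilobase. Neither *Mdga1* and *Plxnd1* nor *Plxnd1* and *Cux1* differed beyond their spread. *Unc5d* with 142 ± 11.5, *Cux2* with 99.99 ± 15.5 and *Rorb* with 24.4 ± 3.99 per kilobase were the lowest. With the longest transcript as the length, *Cux1* had 444 per kilobase and moved above *Mdga1* with 407 and *Plxnd1* with 341, while *Lhx2* had 2089. Per kilobase of its span, the unnamed feature at *Pou3f3* had 6459 ± 687 in wild-type cortex, above all 8 genes.

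The libraries of a genotype differed for many of these genes at once. Wild-type replicate 3 was the lowest wild-type library for 6 of the 8 genes (*Cux1*, *Cux2*, *Rorb*, *Pou3f2*, *Mdga1* and *Unc5d*) and the highest for the other 2 (*Lhx2* and *Plxnd1*). Among the dKO libraries, replicate 1 was the highest for 4 genes (*Pou3f2*, *Lhx2*, *Mdga1* and *Unc5d*) and replicate 3 the lowest for 4 (*Cux2*, *Lhx2*, *Mdga1* and *Plxnd1*).

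Of 28 pairs among the genes, 1 put the 6 libraries in the same order, *Pou3f2* with *Unc5d*. Summed, the 8 genes measured 34526, 35997 and 31069 normalized counts in wild-type libraries against 42083, 36582 and 37984 in dKO libraries, which did not overlap. *Pou3f2*, whose own values overlapped, made up 43.2% of this sum. Without *Pou3f2* the summed values of the genotypes overlap, with dKO replicate 3 below the wild-type libraries. The features whose profile was most like the mean standardized profile of the 8 genes were *2700049A03Rik* (Pearson r = 0.989), *Erbb2ip* (0.979) and *Robo2* (0.976), out of 11629 features with a symbol and a mean of at least 100 compared over 6 libraries, a description without a test.

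Markers of the cells that give rise to upper-layer neurons are given beside these values. Those of radial glia were split, 4 higher and 4 lower in dKO cortex, and their sums overlapped. Of all features tested, 4.92% were higher and 6.58% lower at an unadjusted *P*-value under 0.05 (limma). The 6 markers of intermediate progenitors were all higher in dKO cortex, 5 of them with such a *P*-value and 0 with an adjusted *P*-value under 0.05 (limma). Their sum was 7882, 10628 and 8729 normalized counts in wild-type libraries against 14543, 11348 and 12575 in dKO libraries, with *Insm1* as the most abundant and none at 0. The genotypes did not overlap, and dKO replicate 1 was the highest, as for *Pou3f2*. Among these markers, *Eomes* (log2 fold change 0.49, limma) encodes TBR2. By immunofluorescence, the study found fewer TBR2-positive cells in dKO cortex at this stage, which is a count of cells and not of RNA. Markers of projection neurons in general, led by *Neurod6*, were summed to 85860.0, 111443 and 82909.7 in wild-type and 118216, 91567 and 122423 in dKO libraries. In this sum the genotypes overlapped, and dKO replicates 1 and 3 were the highest, also as for *Pou3f2*. Of these 5 markers 4 were higher and 1 was lower (*Slc17a7*, log2 fold change -0.28). Only *Neurod2*, with 0.31, had an unadjusted *P*-value under 0.05 (limma). The part of cell composition in the values of *Pou3f2*, *Unc5d* and *Cux1* was not tested.

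Partners of these genes were followed as a list of 32 paralogs, ligands, co-receptors and cofactors. Of these 31 were tested, and *Nlgn3* was not analysed here. limma and edgeR called 0 of them and DESeq2 called 1. At an unadjusted *P*-value under 0.05, 0 were higher and 2 were lower, where 4.92% of all features were higher and 6.58% lower, so 2 of 31 is close to that share. The median log2 fold change was 0.0076. The 2 became 4 without wild-type replicate 2, 3 without dKO replicate 2, and 1 without wild-type replicate 1, dKO replicate 1 or dKO replicate 3. The 0 higher became 2 without dKO replicate 3, and 1 without wild-type replicate 2, wild-type replicate 3 or dKO replicate 2, with edgeR, with TMM rescaling and with the replicate block. The median turned with the library left out, from -0.0548 without dKO replicate 1 to 0.0558 without dKO replicate 3. *Plxnc1*, a plexin that binds Sema7A, measured 1531, 1299.7 and 1895 normalized counts in wild-type libraries against 1162, 1145 and 962 in dKO libraries. All dKO values of *Plxnc1* lay below all wild-type values. For *Plxnc1* limma gave a log2 fold change of -0.52 (standard error 0.14, unadjusted p = 0.00321, adjusted p = 0.277, limma), and it was the gene that DESeq2 called (adjusted p = 0.0329, the lowest of its alternatives, where the highest was 0.732).

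*Unc5c*, a netrin receptor related to *Unc5d*, measured 1068, 618 and 691 normalized counts in wild-type libraries against 418, 644 and 508 in dKO libraries, with overlap. Its log2 fold change was -0.58 (adjusted p = 0.386, limma), -0.34 without wild-type replicate 1 and -0.19 without both libraries numbered 1. Of the UNC5 and netrin genes, *Unc5a* and *Unc5b* had log2 fold changes of -0.02 and -0.18, *Ntn1* and *Ntn4* of 0.08 and -0.02, and *Dcc* of 0.38. The FLRT genes *Flrt1*, *Flrt2* and *Flrt3* had 0.05, -0.05 and 0.15, and none of these 8 genes had an unadjusted *P*-value under 0.05. For the ligand of plexin D1, *Sema3e*, the log2 fold change was -0.57 (unadjusted p = 0.0863, limma), and for its co-receptor *Nrp1* 0.20. That of *Nrp1* was 0.0214 without dKO replicate 1 and 0.35 without dKO replicate 3, where its unadjusted *P*-value was 0.0206 (limma). That of *Sema3e* was -0.29 without dKO replicate 3 and -0.38 without wild-type replicate 3, and it had an unadjusted *P*-value under 0.05 without wild-type replicate 2 (-0.82) and without dKO replicate 2 (-0.79). The POU factors *Pou3f1* and *Pou3f4* had log2 fold changes of 0.03 and -0.06, that of *Pou3f1* turning to -0.04 after quantile normalization. *Ldb1*, the cofactor that LIM homeodomain factors such as LHX2 need, had 0.17 (unadjusted p = 0.0513, limma), and *Lmo4*, which competes for it, had -0.10. *Mdga2* had -0.06, and the neuroligins *Nlgn1* and *Nlgn2* that MDGA proteins bind had 0.03 and 0.07. *Rora*, the relative of *Rorb*, had -0.25.

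Another list held 18 other genes of upper-layer and callosal neurons, all tested. limma and edgeR called 0 of them and DESeq2 called 1, *Csmd1*. At an unadjusted *P*-value under 0.05, 1 was higher (*Epha3*, log2 fold change 0.17) and 7 were lower, where 4.92% of all features were higher and 6.58% lower, and the median log2 fold change was -0.17. This median was -0.10 without wild-type replicate 1 and -0.24 without dKO replicate 2. Without wild-type replicate 1 or 3 the 7 became 2, without dKO replicate 1 or 3 they became 3, and with any 1 library left out *Epha3* no longer had such a *P*-value. *Csmd1*, a gene for a large membrane protein with complement-control domains, measured 1259, 896 and 956 normalized counts in wild-type libraries against 729, 795 and 558 in dKO libraries, without overlap. The log2 fold change of *Csmd1* was -0.58 (standard error 0.16, unadjusted p = 0.00431, adjusted p = 0.30, limma, and adjusted p = 0.0470 with DESeq2, the lowest of its alternatives, where the highest was 0.735).

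The next smallest *P*-values in this list were those of *Nnmt*, *Lpl* and *Cpne4*, with log2 fold changes of -1.39, -0.52 and -0.42. *Nnmt* was low, with 29.9 ± 12.5 and 11.2 ± 6.09 normalized counts (SD, n = 3 each). Markers of other cell types are given beside this list. The 5 markers of the oligodendrocyte lineage were all lower, 3 of them with an unadjusted *P*-value under 0.05 (limma). Of all features, 6.58% were lower at that threshold. The sum of these 5 markers was 11942, 6865 and 8926 normalized counts in wild-type libraries against 6006, 6466 and 3804 in dKO libraries, led by *Olig1*. The 4 meningeal markers were also all lower, 1 of them with such a *P*-value, with sums of 605 ± 326 and 298 ± 34.9 led by *Col1a2* (SD, n = 3 each), and wild-type replicate 2 lay within the dKO values, so the genotypes overlapped. Of the microglial markers 2 were higher and 3 lower, and of the radial glia markers 4 were higher and 4 lower. None of the oligodendrocyte lineage and meningeal markers was at 0, and the part of these cells in the list was not tested. *Bhlhe22*, a factor of layers 2 to 5, had a log2 fold change of 0.11, which was 0.0463 without dKO replicate 1, 0.18 without dKO replicate 3 and 0.0246 after quantile normalization.

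Deep-layer genes served as the comparison within the same lineage. Of 17 listed, 16 were tested and *Pcp4* was not analysed here. limma, edgeR and DESeq2 called 0 of them. At an unadjusted *P*-value under 0.05, 3 were higher and 1 was lower of 16, where 4.92% of all features were higher and 6.58% lower. The median log2 fold change was 0.07. Without dKO replicate 2 the 3 became 7, without dKO replicate 1 they became 0, and without wild-type replicate 2 or dKO replicate 3 they became 1. They also became 0 without the trend and robust options of limma. The 1 lower gene became 2 without wild-type replicate 2, without dKO replicate 2 and with DESeq2. The median ran from -0.03 without wild-type replicate 2 to 0.15 without wild-type replicate 1, and was 0.17 for genes with a mean of at least 100. *Bcl11b*, *Sox5* and *Fezf2*, transcription factors of corticofugal neurons, had log2 fold changes of 0.31, 0.37 and 0.31, that of *Fezf2* being 0.20 without wild-type replicate 1 and 0.11 without both libraries numbered 1, and *Etv1*, a layer 5 factor, had -0.39 (unadjusted p = 0.00813, adjusted p = 0.335, limma). Summed, the deep-layer genes had 26606 ± 1460 normalized counts in wild-type cortex against 29306 ± 3236 in dKO cortex (SD, n = 3 each), with overlap. The difference between the upper-layer and the deep-layer genes was not tested.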

How the data were processed

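PolyA+ RNA-seq libraries of E18.5 cortex, 3 from wild-type and 3 from dKO embryos, were compared by the genotype that the labels state. The study speaks of embryos but does not say that each library is one animal, so *P*-values measure the spread between these samples. The authors aligned the reads (STAR 2.7.5a and build mm10 in the submitters' processing notes), counted them on FAST database genes and deposited, for each gene, a signal: the read count divided by a DESeq2 size factor. Dividing by the value of 1 read turned 100.0% of the values above 0 of every library into whole numbers (tolerance 0.02), and the recovered reads numbered 37301024, 32966884 and 39654253 in wild-type and 40896541, 34808551 and 31837922 in dKO libraries.

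limma 3.58.1 (R 4.3.3, trend and robust options) compared log2(normalized count + 1) for the 18970 features whose mean reached 10. *P*-values are two-sided and adjusted by the Benjamini-Hochberg method over all of them, with a threshold of 0.05. This scale understates changes of low genes. Alternatives used other pseudocounts, filters and scalings, edgeR 4.0.16 (quasi-likelihood test), DESeq2 1.42.0, a replicate block and left-out libraries. The fits were also run on simulated data, and no outcome of those runs is given or used here. Lengths came from GENCODE M21, where 22354 of 22403 matched symbols overlapped the gene of that name. Named are the 9 genes, the partners of each, up to 4 genes of each further list with the smallest *P*-values, and overlapping features with a mean of at least 10. The genes and lists were chosen with earlier results of these data known. Markers of cell types were counted in the same way, and DESeq2 and edgeR called 207 and 16 features over all genes. Some genes first put on the lists, and splicing, were not analysed here.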

Additional observations from a re-analysis of the deposited data

How the results depend on the processing

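Over 19 alternatives, 0 of the 8 upper-layer genes passed the adjusted threshold, and *Cux1*, *Pou3f2*, *Lhx2*, *Plxnd1* and *Unc5d* kept their direction in each. The 2 genes with an unadjusted *P*-value under 0.05 became 0 after quantile normalization and without limma's trend and robust options, 1 without both libraries numbered 1, and 0 to 4 with each library left out. With the replicate block the count was 1 and calls over all features went from 19 to 9. Same-numbered libraries deviated with correlations of 0.10, -0.23 and -0.08. The libraries numbered 1 correlated best with each other. Wild-type replicate 2 correlated best with dKO replicate 3 (0.194) and wild-type replicate 3 with dKO replicate 2 (0.205). Whether the numbers mark a pairing or a shared batch was not tested. Directions turned for *Rorb* (0.0042 after quantile normalization, 0.30 without both libraries numbered 1, -0.32 to 0.23 with each library left out), *Mdga1* (-0.0595, -0.0295, and -0.0823 to 0.13) and *Cux2* (-0.15 to 0.10 with each left out). They also turned for *Pou3f1* (-0.0410 after quantile normalization, -0.0673 to 0.10 with each left out), *Pantr2* (0.10, and -0.49 to 0.28) and *Nrp1* (-0.0120 without both numbered 1). The cause was not tested, beyond fewer samples in the fits that leave some out. DESeq2 called 207 features in all, limma without its options 7, features with a symbol only 6, the fit without both libraries numbered 1 called 5, a mean of at least 100 gave 11, and left-out libraries 7 to 46. The libraries numbered 1 stood apart in how each log2 value deviated from the mean of its gene over all libraries. Spearman correlations of this deviation with transcript length across 13978 genes were 0.263 and 0.327 against -0.228 to -0.121 in the others.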

Other observations

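Some further marker lists also kept the genotypes apart in their summed level, and none of their genes had an adjusted *P*-value under 0.05 with limma. Over all features tested, 4.92% were higher and 6.58% lower at an unadjusted *P*-value under 0.05 (limma). The 5 proliferation markers were all higher in dKO cortex, 2 of them with such a *P*-value. Their sums were 3428, 3707 and 3655 normalized counts in wild-type libraries against 4909, 4152 and 4461 in dKO libraries. At an earlier stage, the study reported reduced staining for Ki67, the protein of the marker *Mki67*, which is a count of cells and not of RNA. The 6 pan-neuronal markers were split, 3 higher, each with such a *P*-value, and 3 lower. Their sum, led by *Tubb3*, was 248294 ± 9315 in wild-type cortex against 271333 ± 7796 in dKO cortex (SD, n = 3 each), without overlap. *Tubb3* made up 58.8% of this sum and did not overlap by itself, while the rest of the sum overlapped. Radial glia markers were split, 4 higher and 4 lower, with 2 higher at an unadjusted *P*-value under 0.05, and their sums overlapped, with 45572 ± 5454 and 46418 ± 4652 (SD, n = 3 each). The sums of interneuron and ganglionic eminence markers overlapped as well. Wild-type replicate 3, the lowest wild-type library for 6 of the 8 upper-layer genes, was the highest of all libraries in this sum, with 19824 normalized counts. Of these 9 markers 3 were higher and 6 lower, and only *Sp8* (log2 fold change -0.46) had an unadjusted *P*-value under 0.05 (limma). The 4 astrocyte markers were all lower, 0 of them with an unadjusted *P*-value under 0.05, with sums of 2700 ± 745 and 2162 ± 425 (SD, n = 3 each). The thalamic markers, led by *Slc17a6*, had sums of 979 ± 29.2 and 1069.5 ± 37.0 (SD, n = 3 each) without overlap. *Slc17a6* made up 88.1% of this sum, overlapped between the genotypes by itself and is also a projection neuron marker. Among the 3 thalamic markers tested, 2 were higher and 1 was lower, 0 of them with an unadjusted *P*-value under 0.05 (limma). *Tcf7l2* had a log2 fold change of 0.43 and *Lhx9* of -0.62. *Lhx9* was low and overlapped, with 21.9, 26.9 and 85.0 normalized counts in wild-type libraries against 14.5, 55.4 and 16.2 in dKO libraries. Striatal, hippocampal, Cajal-Retzius, choroid plexus, microglial and erythroid markers overlapped in their sums, and 0 of their genes had an unadjusted *P*-value under 0.05.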
